A study of Bubalus bubalis with 36 samples.

Results

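Back subcutaneous adipose tissue (BSAT, called back fat here) was compared with perirenal adipose tissue (PRAT, perirenal fat) of the same 6 buffaloes (Bubalus bubalis) by miRNA sequencing. The 12 libraries were chosen by the tissue named in each sample's title and paired by its buffalo number, out of 36 libraries in all. Those 36 came from 6 fat depots of 6 animals, with sternal, inguinal, omental and pericardial fat as the other depots. All animals had been weaned at 3 months of age, fattened from 15 months and slaughtered at 20 months. The labels give no treatment, and they name neither breed, sex nor the site within each depot. Back fat lies under the skin of the back, outside the body wall, and perirenal fat encloses the kidney on the inner side of it, so the pair sets outer against inner dorsal fat.

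MicroRNAs (miRNAs) are short RNAs that guide Argonaute proteins to messenger RNAs and lower their stability and translation. Depots of fat differ in embryonic origin and keep a positional code in the HOX gene clusters, which also hold the miR-10 and miR-196 genes. In ruminants the perirenal depot is largely brown at birth and turns white afterwards, while back fat is white fat deposited during growth and fattening. Fat tissue also holds stromal, vascular and immune cells, and the miRNAs of those cells are measured together with the adipocytes'. In such bulk tissue, fewer cells of a type and less RNA per cell cannot be told apart.

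The 6 back libraries held 12287528 to 13432169 counts and the 6 perirenal libraries 9484589 to 13704623, of which the shallowest was the perirenal library of animal 6. Back fat had 943 ± 34.4 features with at least 1 count and perirenal fat 990.3 ± 56.4 (SD, n = 6 each; exact two-sided sign-flip permutation test over animals, p = 0.0938). Candidate loci without a miRNA name took 23.0 ± 3.26% of the counts in back fat and 20.4 ± 4.57% in perirenal fat (p = 0.219 in the same exact test, whose smallest possible p is 0.0313). Levels are given below as CPM, counts scaled by TMM to a common library size and so relative to the rest of the library, and differences as log2 of back over perirenal fat with their standard error. The miRNA tables hold no adipocyte messenger RNA, so the tissue label was checked only against miRNAs of other tissues. Of these, skeletal and cardiac muscle miRNAs summed to 20.4 to 2601 CPM in back fat and 51.2 to 1319 CPM in perirenal fat, with the highest back value in animal 2 and the highest perirenal value in animal 6. Kidney tubule miRNAs summed to 2420.0 to 7157 CPM in back fat and 3063 to 10709 CPM in perirenal fat.

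No miRNA passed the test for a difference between back and perirenal fat. Of 529 features tested, 0 (0%) had an adjusted p below 0.05 in edgeR's quasi-likelihood test with the animal as a block. At an unadjusted p below 0.05 there were 80 features (15.1%), 34 higher in back fat (6.43%) and 46 lower (8.7%). The count depends on the tool and the setting. DESeq2 with the same block called 31 features (5.86%), 15 higher (2.84%) and 16 lower in back fat (3.02%). Without the block DESeq2 called 35 (6.62%), 17 higher (3.21%) and 18 lower (3.4%), and edgeR called 9 (1.7%). Limma on log2(RPM + 1) called 4 (0.756%). A blocked edgeR fit of all 36 libraries called 12 of 667 features (1.8%), of which 9 were lower in back fat (1.35%). Over all features, 250 of 529 had a fitted difference above 0 and 279 below. The smallest adjusted p in the edgeR fit was 0.0512, shared by miR-199b, miR-9-5p and a pair of loci without a miRNA name. A p above the threshold does not show that the depots were alike. The interval of each difference is therefore given with its value.

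**Figure D1:**
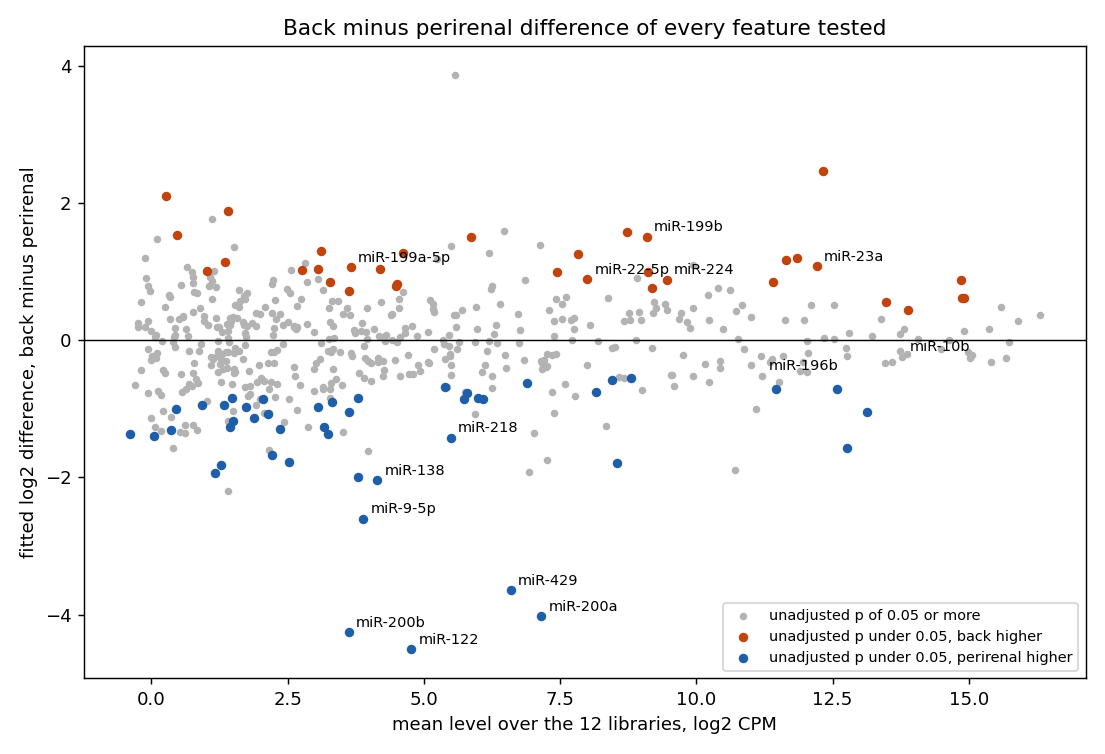
Fitted log2 difference (back minus perirenal) of each of the 529 tested features against its mean CPM on a log axis. The colours mark features with an unadjusted p below 0.05 by direction, and no feature passed the adjusted threshold. The scatter is centred near 0, with a median of −0.038 on the log2 scale.

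Ranges separated in few miRNAs. In 6 features (1.13%) every back library was above every perirenal library, and 6 features (1.13%) had every back library below every perirenal library. Within animals, 27 features (5.1%) were higher in back fat in 6 of 6 animals and 30 (5.67%) were lower in 6 of 6. The named miRNAs with separated ranges were miR-199b, miR-22-5p and miR-199a-5p above, and miR-9-5p, miR-218, miR-122 and miR-95 below.

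MiR-199b, a miRNA of mesenchymal and stromal cells, had the smallest p of the miRNAs that were higher in back fat. Its levels in animals 1 to 6 were 832, 523, 1329, 473, 907 and 839 CPM in back fat, against 277, 235, 294, 220.1, 264 and 343 CPM in perirenal fat. Every back library was above the highest perirenal one, and back fat varied more among animals. The difference was 1.51 ± 0.25 on the log2 scale (95% interval 0.94 to 2.09), higher in 6 of 6 animals, with an edgeR adjusted p of 0.0512. Without the animal block the edgeR adjusted p was 0.0158, and with all 36 libraries in a blocked fit it was 0.00563. With 1 animal left out it ran from 0.0931 to 0.173, and 7 of the 22 alternatives called miR-199b.

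**Figure D2:**
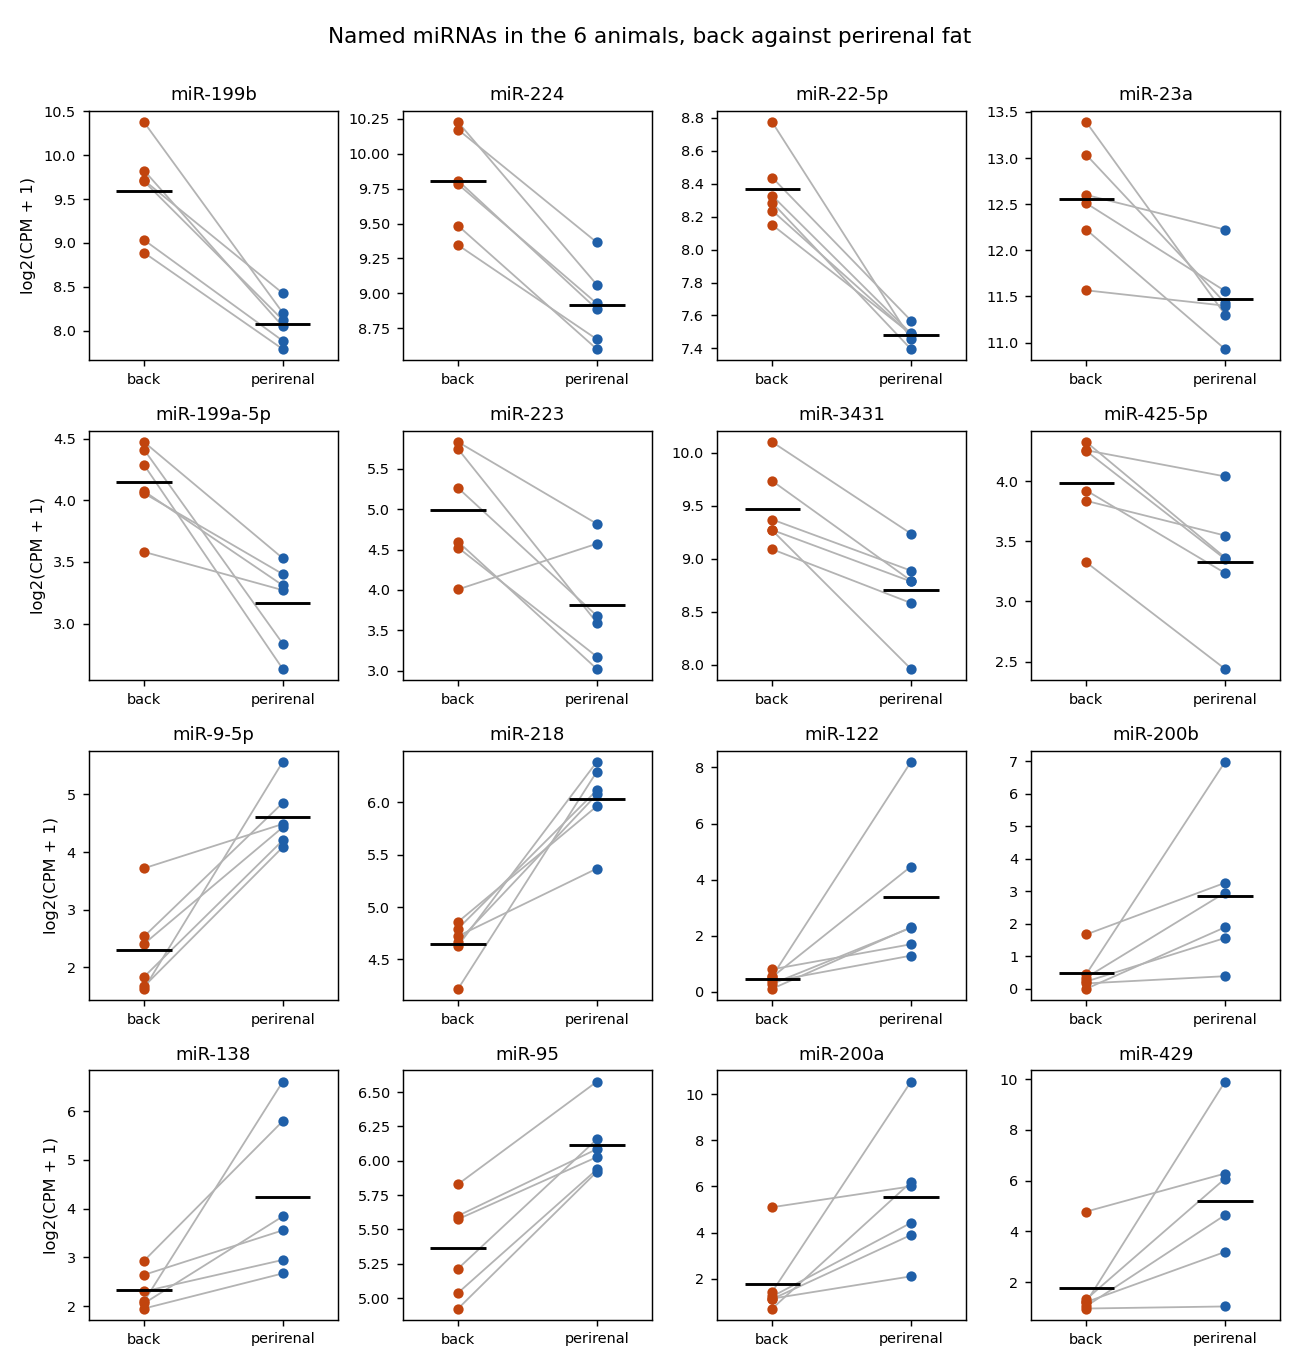
Levels as log2(TMM CPM + 1) of the 8 miRNAs named as higher (top) and the 8 named as lower in back fat (bottom). Back fat is left of perirenal fat, with 1 point per library and lines joining an animal's 2 depots. Bars stand at the depot means of log2(CPM + 1). MiR-199b lay above 473 CPM in every back library and below 343 CPM in every perirenal library, while the miR-200 members spread over several orders of magnitude within perirenal fat.

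The other members of the stromal list were less uniform. MiR-199a-5p, the sister of miR-199b from the other miR-199 genes, had 10.97, 21.2, 18.5, 15.8, 20.3 and 15.7 CPM in back fat, against 8.65, 10.6, 5.197, 8.92, 6.14 and 9.57 CPM in perirenal fat. The ranges met without overlap, at 10.97 CPM in back fat and 10.6 CPM in perirenal fat. Its difference was 1.07 ± 0.30 (95% interval 0.39 to 1.75, edgeR adjusted p = 0.177). The miR-199 genes give closely related mature miRNAs, and how the counting divided shared reads among them is not given, so a single member's level is uncertain. The table does not say which arm its miR-199b is, so adding it to miR-199a-3p may join different arms. That sum averaged 1399 ± 244 CPM in back fat and 710.4 ± 197 CPM in perirenal fat (SD, n = 6 each), a difference of 1.004 ± 0.27 with an edgeR adjusted p of 0.175. MiR-199a-3p alone averaged 579 CPM in back fat and 440 CPM in perirenal fat. Its difference was 0.29 ± 0.37, and it was higher in back fat in 4 of 6 animals. Its share of the sum ran from 23.5% to 72.4% in back libraries and from 50.4% to 67.4% in perirenal libraries. Of the 7 tested members of the smooth muscle and stroma list, 6 had a fitted difference above 0, beside 250 of all 529 features, and 2 were higher in back fat at an unadjusted p below 0.05, beside 6.43% of all features. The list median was 0.45. MiR-143, the smooth muscle miRNA and by far the most abundant of that list, averaged 28142 ± 6753 CPM in back fat and 38351 ± 26506 CPM in perirenal fat (SD, n = 6 each), a difference of −0.25 ± 0.31.

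MiR-22-5p was the third named miRNA whose back libraries all exceeded the perirenal ones. It is an arm of miR-22, a miRNA of muscle and fat that has been tied to lipid metabolism in mice. Back fat had 346, 283, 437, 301, 320.2 and 311 CPM in animals 1 to 6 and perirenal fat 189, 179, 175, 178, 179 and 167 CPM. Perirenal levels were narrow, within 167 and 189 CPM, and the back library of animal 3 stood highest. The difference was 0.89 ± 0.23 (95% interval 0.37 to 1.41, edgeR adjusted p = 0.149). Without the block its edgeR adjusted p was 0.0344, and 5 of the 22 alternatives called it.

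MiR-224 and miR-3431 were higher in back fat in every animal, although their ranges overlapped. MiR-224, which lies in an intron of the GABRE gene in mammals and holds back adipocyte differentiation in mouse cells, had a lowest, median and highest level of 649, 887 and 1197 CPM in back fat, against 387, 479 and 658 CPM in perirenal fat. Its difference was 0.89 ± 0.21 (95% interval 0.40 to 1.37). The ranges crossed only where the perirenal library of animal 5 passed the lowest back library, by 658 against 649 CPM. MiR-3431 had 544, 639 and 1096 CPM in back fat, against 249, 442 and 603 CPM in perirenal fat, a difference of 0.76 ± 0.24. MiR-425-5p, also higher in 6 of 6 animals, differed by 0.72 ± 0.26 at a mean below 20 CPM in both depots. The edgeR adjusted p of these was 0.124 for miR-224, 0.226 for miR-3431 and 0.288 for miR-425-5p.

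MiR-23a and miR-27a come from 1 transcript that also carries a copy of miR-24, while miR-23b and miR-27b come from a second locus with the other copy. MiR-23a had 5831, 3032, 8390.1, 4783, 10722 and 6209 CPM in back fat, against 3017, 2701, 2759.9, 1949, 2526 and 4784 CPM in perirenal fat. It was higher in back fat in 6 of 6 animals, by 1.08 ± 0.30 (95% interval 0.39 to 1.76, edgeR adjusted p = 0.177). The perirenal library of animal 6 lay within the back range. Both arms of miR-27a were above 0 as well. MiR-27a-3p, which restrains adipocyte differentiation in mouse and human cells, had 7454, 14823 and 17464 CPM in back fat, against 6878, 9259.7 and 10926 CPM in perirenal fat, as lowest, median and highest. It differed by 0.55 ± 0.20 (edgeR adjusted p = 0.288), and the rarer miR-27a-5p differed by 1.51 ± 0.55 (edgeR adjusted p = 0.288). Over the letter B pairs described further on, the miR-27a-5p difference was 2.12.

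The b locus did not show this pattern beyond its error. MiR-23b-3p averaged 7685 ± 9362 CPM in back fat and 6083 ± 4511 CPM in perirenal fat (SD, n = 6 each), a difference of −0.12 ± 0.73. For miR-27b the difference was 0.14 ± 0.19 (95% interval −0.29 to 0.57). MiR-24-3p, shared by both loci, differed by −0.33 ± 0.81. The a and b forms are near-identical, so reads may have been divided between them. Summed, miR-23a and miR-23b-3p differed by 0.44 ± 0.41 (edgeR adjusted p = 0.646), and miR-27a-3p and miR-27b by 0.26 ± 0.18 (0.507). Whether the a locus differed more than the b locus was not tested.

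All 4 tested members of the miR-148 and miR-152 family had a fitted difference above 0, with a median of 1.15 beside −0.038 over all 529 features. MiR-148a promotes adipocyte differentiation in human and mouse cells, and the members share a seed. MiR-148a had 432, 1197, 1335, 600.1, 394 and 546 CPM in back fat, against 203, 484, 248, 356, 522 and 310.0 CPM in perirenal fat. The back libraries of animals 2 and 3 stood above the others, and animal 5 was the exception in which perirenal fat was higher. The difference was 0.998 ± 0.37 (95% interval 0.16 to 1.83, edgeR adjusted p = 0.288). MiR-152 had 156, 298 and 671 CPM in back fat, against 58.5, 136 and 192 CPM in perirenal fat, a difference of 1.26 ± 0.51. The rarer miR-148b was higher in 6 of 6 animals, by 1.05 ± 0.40. MiR-148c differed by 1.38 ± 0.72, and it is so close to miR-148a that their reads may have been divided. Their sum differed by 1.05 ± 0.38 (edgeR adjusted p = 0.306). Across the 6 animals the median difference of the family had an SD of 1.21, as large as the difference itself. Without animal 3, miR-148a differed by 0.72 and miR-152 by 0.84.

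MiR-9-5p is a neuronal miRNA of the brain in mammals. It had the smallest p of the named miRNAs that were lower in back fat. Its levels were 2.09, 4.81, 2.57, 12.2, 4.31 and 2.18 CPM in back fat, against 46.4, 27.9, 17.4, 21.4, 20.6 and 15.98 CPM in perirenal fat. Every perirenal library was above every back library, and the back library of animal 4 stood apart from the other back libraries at 12.2 CPM. The difference was −2.600 ± 0.46 (95% interval −3.65 to −1.55), lower in back fat in 6 of 6 animals, with an edgeR adjusted p of 0.0512. DESeq2, limma on log2(RPM + 1) and edgeR without the block, or with all 36 libraries and the block, called it. These were among the 8 of 22 alternatives that did.

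MiR-218, encoded in introns of the axon guidance genes SLIT2 and SLIT3, separated just as fully. Back fat had 24.5, 23.8, 17.6, 28.02, 25.4 and 26.7 CPM and perirenal fat 66.5, 82.7, 77.4, 61.4, 40.3 and 68.3 CPM. Back levels were narrow, with a mean of 24.3 CPM in back fat and 66.1 CPM in perirenal fat, and all perirenal libraries were above all back ones. The difference was −1.42 ± 0.27 (95% interval −2.05 to −0.79, edgeR adjusted p = 0.0722), and edgeR without the block gave an adjusted p of 0.0158. MiR-218 was called by 6 of the 22 alternatives. MiR-138, which restrains adipocyte differentiation of human stromal cells, had 3.94, 5.25, 3.29, 3.17, 2.87 and 6.64 CPM in back fat, against 6.72, 10.8, 96.2, 13.3, 5.38 and 54.5 CPM in perirenal fat. Its perirenal levels were led by animals 3 and 6, and it was lower in back fat in 6 of 6 animals, with a difference of −2.04 ± 0.59 (edgeR adjusted p = 0.192); the difference was −2.89 without the block. Of the 10 tested members of the neural and neuroendocrine list, 8 had a fitted difference below 0, beside 279 of all 529 features. At an unadjusted p below 0.05, 3 were lower in back fat, namely miR-9-5p, miR-218 and miR-138, beside 8.7% of all features. The list median was −1.33. Its sum ranged over 372 to 1456 CPM in back fat and 403 to 1774 CPM in perirenal fat.

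MiR-95 was lower in back fat in every animal, with 46.7, 55.9, 29.3, 31.9, 47.5 and 36.1 CPM in back fat, against 64.2, 94.4, 59.5, 60.3, 66.9 and 70.4 CPM in perirenal fat. The 2 depots did not overlap, and the perirenal library of animal 2 stood highest. The difference was −0.77 ± 0.23 (95% interval −1.298 to −0.24, edgeR adjusted p = 0.222).

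The miR-200 family, which keeps epithelial cells epithelial by repressing ZEB1 and ZEB2, had the widest differences of the lists together with miR-122. MiR-200a had 1.34, 1.700, 1.195, 1.17, 0.628 and 33.3 CPM in back fat, against 20.4, 1494, 3.29, 13.9, 71.7 and 63.1 CPM in perirenal fat. Perirenal levels ran from 3.29 CPM in animal 3 to 1494 CPM in animal 2, while 5 back libraries held under 2 CPM and that of animal 6 held 33.3 CPM. The difference was −4.03 ± 1.26 (95% interval −6.91 to −1.14, edgeR adjusted p = 0.237), lower in back fat in 6 of 6 animals. Its clustermates miR-200b and miR-429 differed by −4.26 ± 1.01 and −3.65 ± 1.22, and miR-200c of the second cluster by −1.99 ± 0.75. All of these had their highest perirenal level in animal 2. Without animal 2 the differences were −3.19 for miR-200a, −3.35 for miR-200b, −2.85 for miR-429 and −1.41 for miR-200c, all still negative. The blocked fit of all 36 libraries gave miR-200a −5.57 with an edgeR adjusted p of 0.0402. With the A or B at the end of the library names as a further term, described further on, the differences were −2.92 for miR-200a, −2.86 for miR-200b and −2.35 for miR-429. In the pairs with letter B alone they were −2.61 for miR-200a, −2.66 for miR-200b and −2.24 for miR-429, and none of these passed the threshold. Of the 6 tested members of the epithelial list, 5 had an unadjusted p below 0.05 and were lower in back fat, beside 8.7% of all features, and miR-183 had 0.18 ± 0.36. The list summed to 6.01 to 67.8 CPM in back fat and 20.2 to 2690.1 CPM in perirenal fat.

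MiR-122, the liver's most abundant miRNA, was at most 0.751 CPM in any back library, against 3.94, 3.88, 1.45, 2.25, 21.2 and 293 CPM in the perirenal libraries of animals 1 to 6. The ranges did not overlap, and 1 perirenal library, that of animal 6, held most of the signal. The difference was −4.51 ± 1.04 (95% interval −6.89 to −2.14, edgeR adjusted p = 0.121), and without animal 6 it was −3.66. Without the block it was −7.13 with an edgeR adjusted p of 0.0321, and DESeq2 with the block called it as well. In all, 4 of the 22 alternatives called miR-122. The other liver miRNA of the list, miR-885, averaged 2.45 ± 1.96 CPM in back fat and 6.798 ± 2.63 CPM in perirenal fat (SD, n = 6 each), a difference of −1.68 ± 0.60, which was −0.49 in the pairs with letter B alone. Whether RNA of liver or epithelial cells had part in these levels was not tested.

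The perirenal depot lies on the kidney, and the tubule miRNAs were examined for that reason. Of 6 tested members, 5 had a fitted difference below 0, beside 279 of all 529 features, with a median of −0.56. At an unadjusted p below 0.05, 2 were lower in back fat, beside 8.7% of all features. MiR-194, processed from the same transcripts as miR-192 and miR-215, had 117, 213 and 354 CPM in back fat, against 222, 376 and 416 CPM in perirenal fat, as lowest, median and highest. It differed by −0.75 ± 0.31 (edgeR adjusted p = 0.312). MiR-215 was lower in back fat in 6 of 6 animals, with a difference of −1.01 ± 0.38, at a mean below 2 CPM in both depots. MiR-204, a tubule miRNA that is also pro-adipogenic and made most of the list's sum, averaged 3366 ± 1597 CPM in back fat and 4996 ± 2966 CPM in perirenal fat (SD, n = 6 each) and differed by −0.46 ± 0.25. On a scale common to all 36 libraries, miR-194 averaged 356 ± 199 CPM in inguinal fat and 352 ± 86.6 CPM in perirenal fat (SD, n = 6 each). For miR-215, perirenal fat ranked 4 among the 6 depots by mean level. The part of kidney tissue in these values was not tested.

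**Figure D3:**
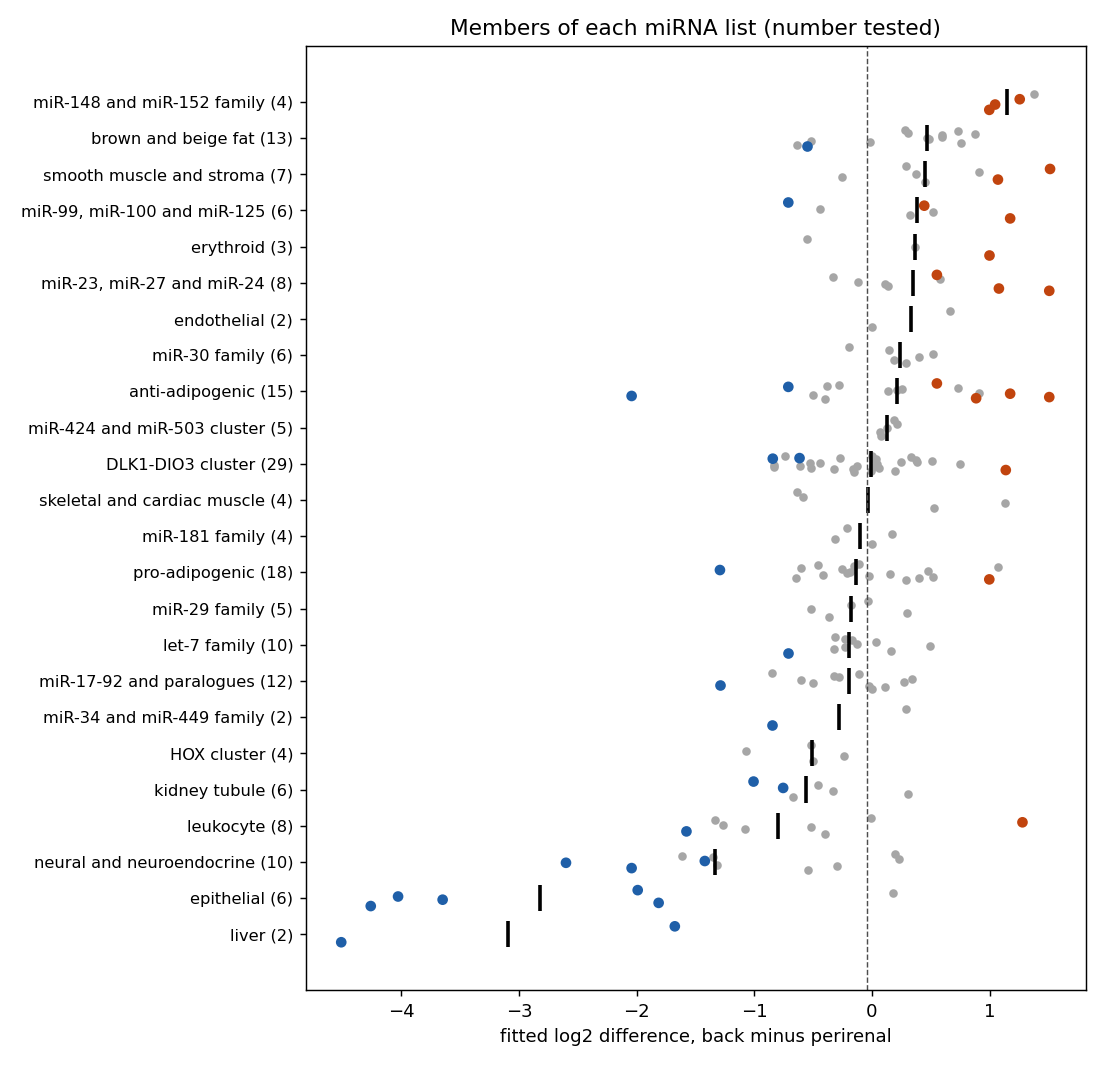
Fitted log2 difference (back minus perirenal) of each tested member of the gene lists, 1 point per feature, with a bar at each list's median and a line at the median of all 529 features. The epithelial, liver and neural lists lie furthest below 0 and the miR-148 and miR-152 family furthest above it.

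Blood cell miRNAs did not share 1 direction. In the leukocyte list 7 of 8 tested members had a fitted difference below 0, beside 279 of all 529 features, with a median of −0.80, and the list summed to 2042 to 6664 CPM in back fat and 4451 to 31372 CPM in perirenal fat. MiR-150, a miRNA of mature lymphocytes, had 1255, 2099, 1343, 5851, 4268 and 5189 CPM in back fat, against 9636, 4832, 24978, 8612, 3748 and 11411 CPM in perirenal fat. The perirenal library of animal 3 stood above all others. Its difference was −1.58 ± 0.58 (95% interval −2.903 to −0.25, edgeR adjusted p = 0.288). MiR-223, a miRNA of neutrophils and monocytes, went the other way, with 15.1, 55.96, 52.6, 23.2, 21.99 and 37.4 CPM in back fat, against 22.8, 27.2, 11.1, 7.12, 8.02 and 11.8 CPM in perirenal fat. It was higher in back fat in 5 of 6 animals, by 1.28 ± 0.39 (edgeR adjusted p = 0.222). MiR-155 and miR-146b of activated leukocytes differed by −0.40 ± 0.50 and −1.08 ± 0.93, and both were highest in the perirenal library of animal 3.

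Of the 3 erythroid miRNAs, miR-486 differed by 0.99 ± 0.42 (edgeR adjusted p = 0.325). MiR-144 lay on the other side of 0, at −0.55 ± 0.30 (edgeR adjusted p = 0.406), and was higher in back fat in 2 of 6 animals. MiR-451, the red cell miRNA and the most abundant miRNA of the 12 libraries, had 40969, 86353 and 165678 CPM in back fat, against 46392, 62344 and 102729 CPM in perirenal fat, as lowest, median and highest. It was higher in back fat in only 2 of 6 animals, and its difference was 0.37 ± 0.30 (95% interval −0.31 to 1.05). In the endothelial pair, miR-126-3p averaged 25576 ± 5772 CPM in back fat and 25568 ± 5655 CPM in perirenal fat (SD, n = 6 each), a difference of −0.0013 ± 0.24. For miR-126-5p the difference was 0.67 ± 0.43 (95% interval −0.30 to 1.64).

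The HOX cluster miRNAs mark position along the body axis, and all 4 tested members were well measured in both depots. MiR-10b, in the HOXD cluster, had 7339, 14180.3 and 16125 CPM in back fat, against 10275, 13682 and 22237 CPM in perirenal fat, as lowest, median and highest. Its difference was −0.24 ± 0.23 (95% interval −0.76 to 0.28). MiR-10a, in the HOXB cluster, differed by −0.50 ± 0.35 (95% interval −1.299 to 0.30). MiR-196b, in the HOXA cluster, had 584, 2431, 1459, 4115, 2165 and 1422 CPM in back fat, against 2249, 2656, 1833, 2479, 1769 and 5040.4 CPM in perirenal fat. The ranges overlapped, with the lowest level in the back library of animal 1 and the highest in the perirenal library of animal 6. Its difference was −0.52 ± 0.41 (95% interval −1.46 to 0.42), and that of the related miR-196a −1.07 ± 0.57 (95% interval −2.36 to 0.23). Neither had an unadjusted p below 0.05, and without animal 6 the miR-196a difference was −0.60. Because the miR-196 forms are near-identical they were also summed, which gave −0.53 ± 0.42. MiR-615, of the HOXC cluster, had 52 counts in the 6 back libraries and 38 in the 6 perirenal ones and was too low to test.

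The other depots place these levels. On a scale common to all 36 libraries, miR-196b averaged 2143 ± 1342 CPM in back fat and 2629 ± 1198 CPM in perirenal fat (SD, n = 6 each). In omental fat it averaged 85.9 ± 156 CPM and in pericardial fat 14.9 ± 11.1 CPM. MiR-10b averaged 13064 ± 2911 CPM in back fat, 15144 ± 5752 CPM in perirenal fat and 1916 ± 631 CPM in pericardial fat. In every back and perirenal library both miRNAs were above their highest pericardial level. These levels are given as a description, with no test.

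**Figure D4:**
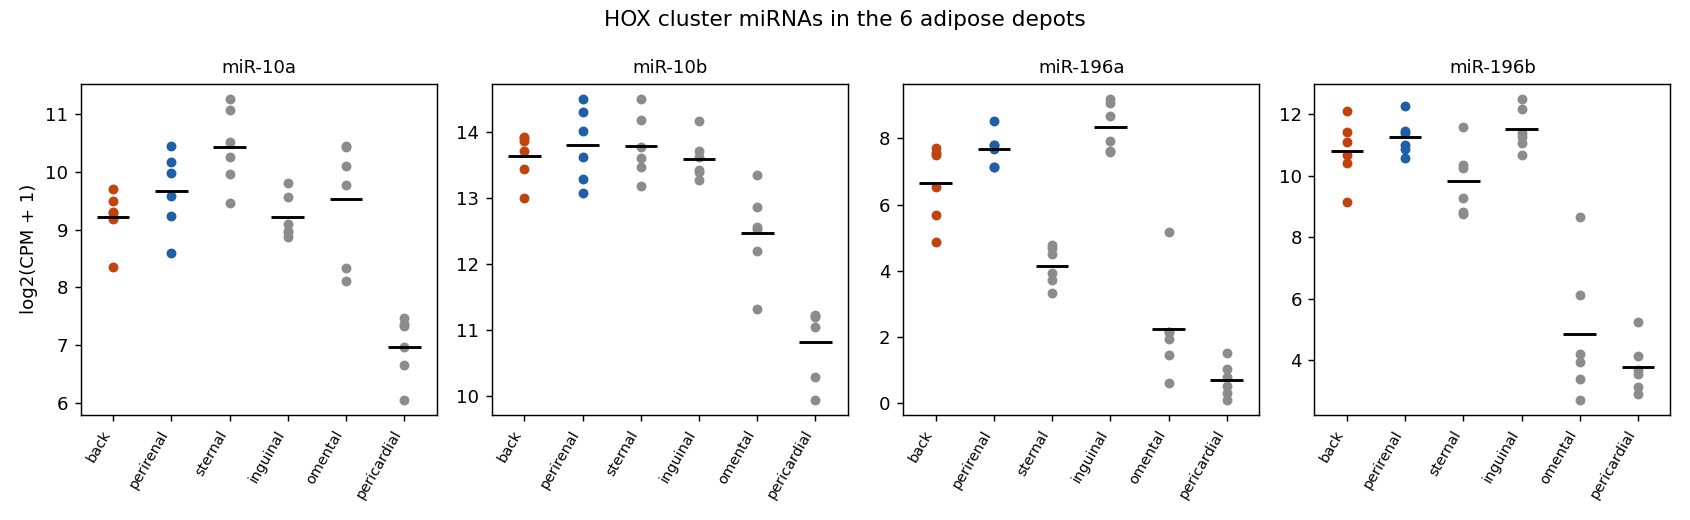
Levels as log2(TMM CPM + 1) of the HOX cluster miRNAs in the 6 depots on a scale common to all 36 libraries. There is 1 point per library, with bars at the depot means of log2(CPM + 1). Back and perirenal fat overlap in all 4, and both lie above pericardial fat.

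The miR-99, miR-100 and miR-125 clusters and the let-7 genes beside them are described by locus, a grouping noticed after the values were seen. MiR-125b, which lies with miR-100 or miR-99a beside a let-7 gene, had 4337, 5169, 1877, 4706, 5781 and 3801 CPM in back fat, against 315, 3049, 1391, 2929.8, 1986 and 3002 CPM in perirenal fat. It was higher in back fat in 6 of 6 animals by 1.17 ± 0.46 (edgeR adjusted p = 0.293), and the perirenal library of animal 1 stood lowest at 315 CPM. MiR-100 differed by 0.44 ± 0.19 and let-7c, the let-7 gene of the miR-99a locus, by 0.49 ± 0.22. Let-7a, which has a gene copy in the miR-100 locus, lay on the other side of 0, at −0.31 ± 0.31 for let-7a-5p and −0.17 ± 0.29 for let-7a-3p. Without animal 1, miR-125b differed by 0.81. The members of the third locus, miR-99b, let-7e and miR-125a, lay below 0. Let-7e had 946, 2402 and 2963 CPM in back fat, against 2511, 3255 and 5323 CPM in perirenal fat, as lowest, median and highest, and was lower in back fat in 6 of 6 animals, with a difference of −0.72 ± 0.27 (edgeR adjusted p = 0.288). MiR-125a differed by −0.71 ± 0.29 and miR-99b by −0.44 ± 0.32. Of the 10 let-7 family members, 7 had a fitted difference below 0, beside 279 of all 529 features, with a median of −0.20.

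The lists tied to fat cell differentiation and thermogenesis held members on both sides of 0. Of the 18 tested pro-adipogenic miRNAs, 7 had a fitted difference above 0 and 11 below, beside 250 and 279 of all 529 features. An unadjusted p below 0.05 was found for 1 in each direction, miR-148a above 0 and miR-17-5p below, beside 6.43% and 8.7% of all features. MiR-17-5p, of the proliferation cluster miR-17-92, was lower in back fat in 6 of 6 animals, with a difference of −1.29 ± 0.50, at low levels led by the perirenal libraries of animals 3 and 6. Of the 15 anti-adipogenic miRNAs, 9 were above 0 and 6 below, beside 250 and 279 of all 529 features. At an unadjusted p below 0.05, 4 were higher in back fat and 2 lower, beside 6.43% and 8.7% of all features. The higher ones were miR-224, miR-125b and both arms of miR-27a, and the lower ones miR-138 and miR-125a. The brown and beige fat list had a median of 0.47, with 9 of 13 tested members above 0, beside 250 of all 529 features. Its single unadjusted p below 0.05 went the other way: miR-32, which drives brown fat thermogenesis in mice, had 232, 362 and 532 CPM in back fat, against 352, 493 and 793 CPM in perirenal fat, as lowest, median and highest, and a difference of −0.55 ± 0.24. MiR-193b and miR-365-3p, made from a shared locus, differed by 0.59 ± 0.26 and 0.87 ± 0.47. MiR-378, in an intron of the PGC-1β gene, spread from 143 to 2124 CPM in back fat and from 161 to 8137 CPM in perirenal fat, so that its difference of 0.73 ± 1.46 had an interval of −2.604 to 4.07.

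The remaining lists had medians between −0.28 and 0.24. In the imprinted DLK1-DIO3 cluster, which is expressed from the maternal chromosome, 29 of 55 listed features in the table were tested, 14 above 0 and 15 below, with a median of −0.0077. Its most abundant member, miR-127, averaged 17551 ± 7082 CPM in back fat and 16968 ± 5776 CPM in perirenal fat (SD, n = 6 each), a difference of 0.023 ± 0.26. MiR-154c, miR-376b and miR-379 had an unadjusted p below 0.05, or 3 of 29 beside 15.1% of all features, at 1.14 ± 0.45, −0.84 ± 0.35 and −0.62 ± 0.26. The median was −0.20 for miR-17-92 and its paralogues, 0.13 for the miR-424 and miR-503 cluster, −0.18 for miR-29, 0.24 for miR-30 and −0.10 for miR-181. In the miR-34 and miR-449 family, miR-449a, a miRNA of ciliated epithelia, differed by −0.85 ± 0.35 (edgeR adjusted p = 0.306). Muscle miRNAs had a median of −0.031. Skeletal muscle's miR-206 reached 1994 CPM in the back library of animal 2 and at most 74.3 CPM in the other back libraries, against at most 47.5 CPM in perirenal fat.

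The 5 miRNAs with the highest mean level were miR-451, miR-26c, miR-26a, let-7c and let-7f. Let-7f averaged 38335 ± 5211 CPM in back fat and 48373 ± 10166 CPM in perirenal fat (SD, n = 6 each), a difference of −0.32 ± 0.20 (95% interval −0.77 to 0.13). MiR-26a and miR-26c, pro-adipogenic in human cells as the miR-26 family, cannot be read singly. The miR-26a share of their sum was 92.3%, 9.28%, 91.3%, 16.1%, 97.1% and 7.78% in the back libraries of animals 1 to 6, against 11.5%, 94.3%, 92.6%, 97.0%, 4.95% and 13.2% in the perirenal libraries. In each library 1 of the 2 held most of the reads, with no order by depot or animal. The sum was 106376 ± 37777 CPM in back fat and 108233 ± 14083 CPM in perirenal fat, a difference of −0.11 ± 0.21 (95% interval −0.59 to 0.38).

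Loci without a miRNA name made up 196 of the 529 features tested, and at an unadjusted p below 0.05 there were 11 higher in back fat and 14 lower, beside 34 (6.43%) and 46 (8.7%) of all 529 features. They carry only locus identifiers, with no gene name in the table, and the ones given here were chosen after their values were seen, for their separated ranges. Locus NC_059165.1_25336 had 4062, 13486, 3469, 6453, 8883 and 15556 CPM in back fat, against 2078, 936, 3296, 508, 1314 and 1818 CPM in perirenal fat. Its lowest back library was above its highest perirenal library, and its difference was 2.46 ± 0.57 (edgeR adjusted p = 0.121). Locus NC_059160.1_13337 differed by 1.58 ± 0.23, also with every back library above every perirenal one. In the opposite direction, NC_059158.1_6094 differed by −1.77 ± 0.31 and NC_059158.1_4302 by −1.37 ± 0.34, at means below 15 CPM in both depots.

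The named miRNAs were also placed among the 6 depots by mean level. Of the 8 named as higher in back fat, back fat was the highest of the 6 depots in 5 and perirenal fat the lowest in 3. Of the 8 named as lower, perirenal fat was the highest depot in 5 and back fat the lowest in 2. For miR-200a, miR-200b and miR-429 that top rank came through the perirenal library of animal 2. MiR-200a held 1562 CPM there and at most 76.2 CPM in the other perirenal libraries. Its mean was 169 ± 133 CPM in pericardial fat and 98.7 ± 143 CPM in omental fat. The top ranks of miR-122 and miR-138 rested on few perirenal libraries too. MiR-122 held 283 CPM in that of animal 6 and at most 22.5 CPM in the others. MiR-138 held 80.4 and 52.7 CPM in those of animals 3 and 6 and at most 14.4 CPM in the others. MiR-9-5p averaged 43.4 ± 18.97 CPM in pericardial fat, above the 24.4 ± 10.2 CPM of perirenal fat (SD, n = 6 each). MiR-218 averaged 170.0 ± 76.7 CPM in omental fat, above the 64.4 ± 13.96 CPM of perirenal fat.

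Libraries of 1 depot were little more alike than libraries of different depots. The median correlation of log2 CPM between libraries was 0.945 within a depot and 0.935 between depots, across features that are not independent. The SD among animals was smaller in back than in perirenal fat in 310 of 529 features, with a median SD on the log2 scale of 0.643 in back fat and 0.758 in perirenal fat. Library names end in A or B, a letter whose meaning the labels do not give. The letter was A in the back library of animal 4 and in the perirenal libraries of animals 1, 2 and 4. With the letter as a further term, or in the 4 animals whose libraries share a letter, no feature passed the threshold, and 50 and 49 had an unadjusted p below 0.05. Beside the animal block, the letter term leaves the depot difference to animals 3 to 6, the same 4 animals. These settings are therefore nearly the same estimate, and both rest on fewer animals than the main fit. In the 3 pairs with letter B alone, 38 of 553 did. The miR-199b difference was 1.59 with the letter term and 1.74 in the letter B pairs.

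**Figure D5:**
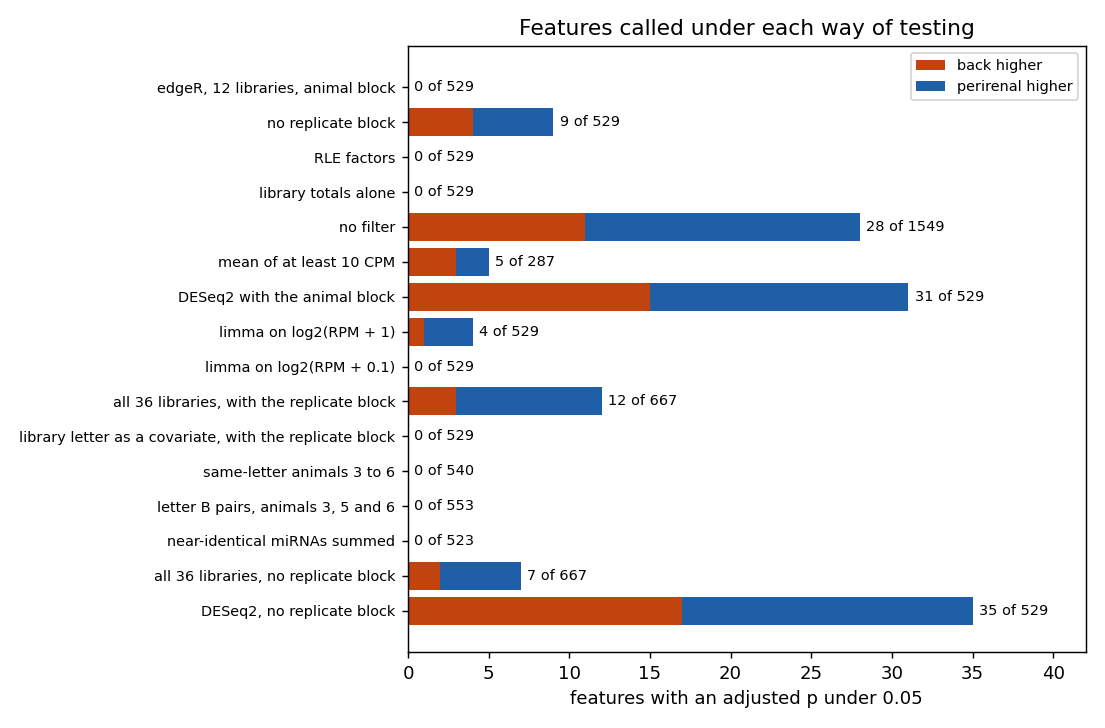
Number of features with adjusted p below 0.05, higher and lower in back fat, under the fit used here and the alternatives. The fits with an animal left out and the fit of reads recovered from RPM are not drawn. The counts run from 0 in the blocked edgeR fit of the 12 libraries to 35 in DESeq2 without the block.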

How the data were processed

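Total RNA came from an RNeasy lipid tissue kit and library preparation used TruSeq RNA LT kit v2, per the labels' protocols. The authors deposited 1 table of raw counts per miRNA and 1 of RPM (reads scaled to library totals) for all 36 libraries. The submitters' processing notes list DESeq2 1.24.0 but not what it was used for. The sources used here do not give the caller, aligner or build. Columns were matched to samples by the column names in the labels, and 0 sample columns were left unused. The table lists 1682 features, 695 with a miRNA name and 987 candidate loci; 1 row without a name held 0 counts and was left out.

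The deposited RPM values are counts scaled by library totals: 100% gave whole reads within 0.01 reads, and 100% of these equalled the deposited counts. An edgeR fit of those recovered reads, an alternative added after the data were seen, therefore had to repeat the main fit, with 0 features called. Counts as deposited were tested with edgeR 4.0.16 (R 4.3.3; TMM, quasi-likelihood, minimum count 10, animal as block) over 529 features holding 99.98% of the counts, with Benjamini-Hochberg adjustment and a threshold of 0.05; the standard error is the log2 difference divided by the square root of F. The test was tried first on simulated counts that held no animal effect, so that trial does not bear on the block. Intervals are 95%. Levels used a log2 prior count of 2 where correlations and spreads were taken. DESeq2 1.42.0 and limma 3.58.1 on log2(RPM + 1) or log2(RPM + 0.1), other scaling, filters, leaving out each animal and library letters were alternatives. Library totals and shares were tested with exact sign-flip permutation tests over 6 animals.

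Both depots came from the same animals, so numbers pair the samples; deviations from the depot means correlated between an animal's own 2 libraries at 0.12, 0.07, 0.07, 0.11, −0.18 and 0.29 in animals 1 to 6. No 2 libraries of a depot agreed within counting error (smallest chi-square per degree of freedom 1263). Members, comparisons and lists were chosen with earlier results of these data known. The text names miRNAs whose mean reached 10 CPM with 1 direction in at least 5 of 6 animals: the 12 largest called differences per direction or, as here with none called, the 8 with the smallest p; it adds HOX miRNAs, the 5 most abundant, and up to 4 members per list. Other list members are given to show the spread of their list and were chosen after their values were seen. Intervals cover the spread between animals. No miRNA sequences or genome were used here.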

Additional observations from a re-analysis of the deposited data

Results flagged for a closer look

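For the 46 named miRNAs and 4 library measures, each depot's 6 libraries were searched for 1 that stood far from the others of its depot. In 23 of 100 such groups the gap to the nearest library, as a share of the group's whole range, passed Dixon's 95% limit. Chance gives about 1 in 20 groups if values are normally distributed. Levels were taken as CPM without logarithm, which need not be so distributed, so that rate is only a rough guide here. In back fat, animal 6 stood high for miR-200a at 33.3 CPM, miR-429 at 26.6 CPM and miR-200b at 2.18 CPM. The back library of animal 3 stood high for miR-148b at 28.1 CPM, miR-885 at 6.16 CPM, miR-17-5p at 5.20 CPM and miR-215 at 2.03 CPM. MiR-9-5p stood high in the back library of animal 4 at 12.2 CPM, and miR-379 in that of animal 2 at 149 CPM.

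In perirenal fat, animal 2 stood high for 8 miRNAs. Its library held 1494 CPM of miR-200a, 952 CPM of miR-429, 125 CPM of miR-200b and 102 CPM of miR-200c. It also held 5323 CPM of let-7e, 338 CPM of miR-379, 94.4 CPM of miR-95 and 3.68 CPM of miR-154c. The perirenal library of animal 6, the shallowest of the 12, held 82399 CPM of let-7c, 5040.4 CPM of miR-196b, 382 CPM of miR-196a and 293 CPM of miR-122. The perirenal library of animal 3 held 24978 CPM of miR-150, and that of animal 1 held 72.9 CPM of miR-27a-5p. None of the 4 library measures was set apart in this way in either depot.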

How the results depend on the processing

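The count of 0 called features held with RLE factors, library totals, limma on log2(RPM + 0.1), near-identical miRNAs summed and each animal left out (0 to 0). It also held with the letter term, in same-letter animals and in letter B pairs. RPM-recovered reads are the deposited counts, so that fit only repeats the main one. Without the replicate block, edgeR called 9 features, and the other nonzero counts were 28 with no filter, 5 at a mean of at least 10 CPM, 31 by DESeq2 with the block, 4 by limma on log2(RPM + 1), 12 in the blocked fit of all 36 libraries, and, chosen after the data were seen, 7 in that fit without the block and 35 by DESeq2 without the block; the filters changed which features were tested, and the cause of the other changes was not tested. Of 46 named miRNAs, 43 kept their direction under each alternative that gave them a value and 21 were called under at least 1. Most of the 46 were chosen for a small p in the main fit, so the 21 is no measure of robustness. The share of all features called under at least 1 was not counted, and DESeq2 without the block called 6.62% of them. The filter at 10 CPM left 41 of the 46 and the fit without animal 6 left 45. MiR-10a turned to 0.054 in letter B pairs. MiR-26c turned to 0.040 with RLE factors, 0.099 with no filter, 0.093 at 10 CPM, 0.041 in DESeq2 with the block and 0.040 in the unblocked fit of all 36 libraries, and ranged from −1.03 to 1.10 with 1 animal left out. MiR-26a turned to 0.70 in letter B pairs and ranged from −0.995 to 0.54 with 1 animal left out. List medians moved by less than their spread among animals with 1 arm per miRNA, RLE factors or totals; that of the DLK1-DIO3 cluster changed sign from −0.0077 to 0.040 with RLE factors, and that of the endothelial pair from 0.33 to −0.0013 with 1 arm, which leaves miR-126-3p alone. With 1 animal left out, the differences in library totals, features detected and shares kept their direction and moved by less than their spread. Precision rests on the spread among 6 animals, a biological coefficient of variation of 0.582 (0.6504 without the block), and miRNAs at a few CPM also rest on few reads.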

Other observations

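MiR-11977 had the widest fitted difference above 0 of the miRNAs with a name, and is described here because of that value. Its levels were 145, 92.4, 0.837, 1.001, 91.8 and 0.854 CPM in the back libraries of animals 1 to 6, against 0.464, 0.749, 93.8, 0.225, 0.768 and 140.1 CPM in the perirenal libraries. Libraries held either about 1 CPM or less, or at least 91.8 CPM, in both depots, with 3 high libraries in back fat and 2 in perirenal fat. The fitted difference was 3.88 ± 3.62 (95% interval −4.41 to 12.16, edgeR adjusted p = 0.649).

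MiR-7, of the neural and neuroendocrine list, also spread widely within each depot. It ran from 47.7 to 1153 CPM in back fat and from 108 to 1469 CPM in perirenal fat, with a difference of −0.54 ± 1.15. MiR-145, a smooth muscle miRNA, reached 2224 CPM in the back library of animal 3 and was at most 437 CPM in the other back libraries, against at most 876 CPM in perirenal fat.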
